A study of Homo sapiens with 12 samples.

Results

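The small ribosomal subunit (40S) of the cytosol is built from 1 ribosomal RNA and a set of ribosomal proteins, and 28 of the genes that encode those proteins are described here, out of the 16172 genes in the deposited table. They were chosen by name, as genes for cytosolic 40S proteins: RPSA, RPS2, RPS3, RPS3A, RPS4X, RPS6, RPS7, RPS9, RPS10, RPS12, RPS13, RPS14, RPS15, RPS15A, RPS16, RPS18, RPS19, RPS20, RPS21, RPS23, RPS24, RPS25, RPS26, RPS27, RPS27A, RPS28, RPS29 and FAU. All 28 were found in the table, and all 28 passed the filter on low values, which asked for an average of 1 TPM or more. The RNA came from the human line H1299, grown from a non-small-cell carcinoma of the lung, in 4 groups of 3 libraries. In the siEIF3G polysomal and siEIF3G input groups the cells had received an equal mix of 2 siRNAs against EIF3G, and in the siCtrl polysomal and siCtrl input groups a control siRNA. All cells were lysed 72 h after transfection. Input RNA was taken from 10% of the lysate, and polysomal RNA, which is bound to several ribosomes at once, came from the remainder after a sucrose gradient of 10% to 50%. The labels do not say whether the 3 libraries of a group came from separate cultures; the p-values below therefore cover only library-to-library spread, which may be technical. The design asks how EIF3G knockdown changes mRNA levels and the mRNA found on polysomes.

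The 40S subunit binds the mRNA, scans it for the start codon and reads the codons, and its proteins fall into those of the head, which swivels over the mRNA channel, and those of the body and platform. Of the 28 genes, 12 encode head proteins and 16 encode body and platform proteins. The EIF3G protein is an RNA-binding part of eIF3, the large complex that binds the 40S subunit and helps to load mRNA onto it. Most mRNAs of vertebrate ribosomal proteins begin with a C followed by a run of pyrimidines, the terminal oligopyrimidine (TOP) motif, and their translation is known to rise and fall together with mTOR signalling and nutrient supply.

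Values are TPM, transcripts per 1000000, so each is a share of its library and levels of different genes can be set side by side per length. TPM keep no read counts, so the depth of the libraries cannot be given. EIF3G stood at 143, 132 and 69.2 TPM in siEIF3G polysomal libraries, against 1680, 1916 and 1803 TPM in siCtrl polysomal libraries. In input it stood at 60.7, 84.7 and 47.3 TPM in siEIF3G libraries, against 1158, 1092 and 878 TPM in siCtrl libraries. The targeted mRNA was thus low in each of the 6 siEIF3G libraries, with log2 differences of -4.02 in polysomal RNA (limma adjusted p = 3.76e-05) and -4.03 in input RNA (limma adjusted p = 3.71e-05). KRT18 and KRT8, keratins of epithelial cells, lay at 435 to 1934 TPM and 108 to 429 TPM, while PECAM1, ALB and COL1A1, markers of endothelium, hepatocytes and fibroblasts, reached at most 0.1 TPM. By mean Pearson correlation across genes, siEIF3G polysomal library 3, siEIF3G input library 2 and siCtrl input library 1 resembled the opposite fraction under their own siRNA more than their own group. Results for the members are therefore also given without these 3 libraries. Because they were picked for likeness to the opposite fraction, leaving them out tends to widen differences between fractions. The cause of the position of these libraries was not tested.

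**Figure D1:**
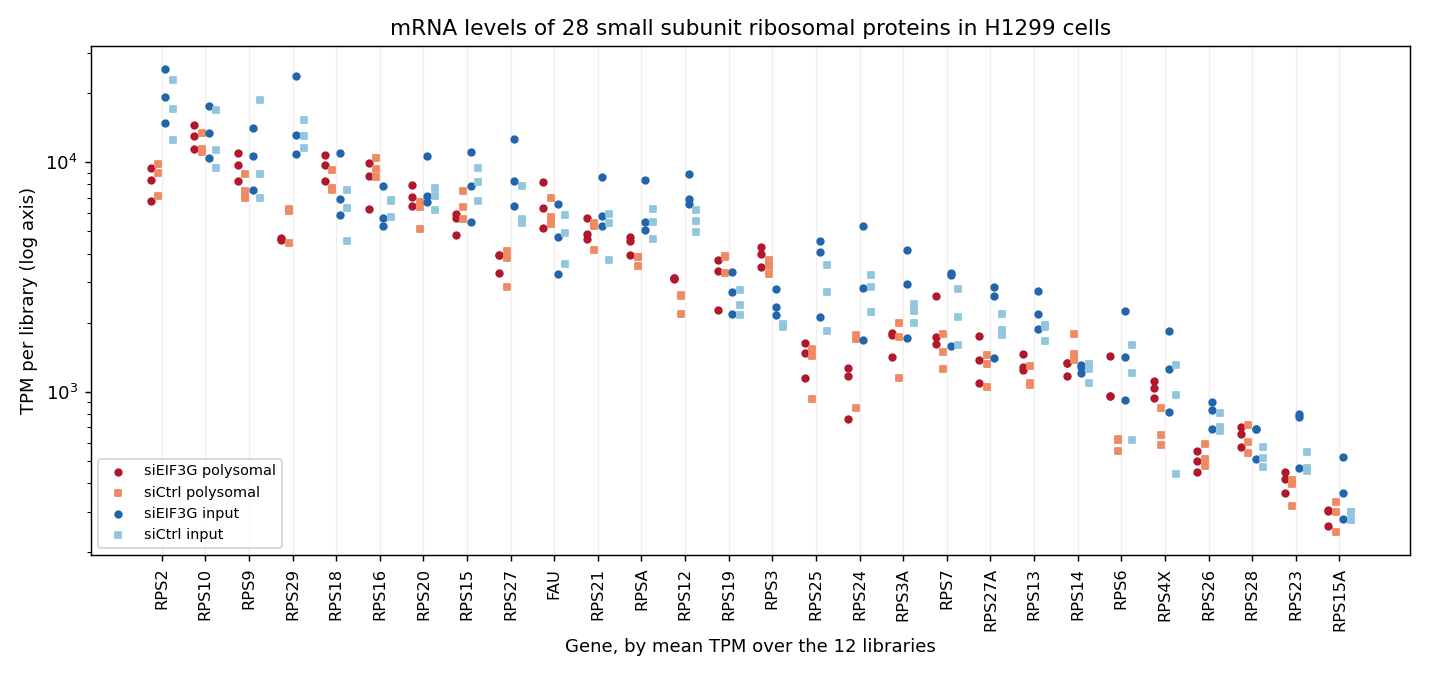
TPM of each of the 28 genes (log axis), with the genes ordered by their mean over the 12 libraries and one point per library. Circles are siEIF3G and squares siCtrl libraries, red and orange polysomal and dark and light blue input. RPS2 and RPS10 head the order and RPS15A closes it, and in RPS29, RPS2, RPS12 and RPS27 all polysomal points lie below all input points.

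The 28 mRNAs were among the most abundant in the cells, yet they spanned a 43.1-fold range although their proteins are each present in a single copy per subunit. RPS2, a body protein at the mRNA entry side, had the highest mean over the 12 libraries at 13554 TPM, with a range from 6764 to 25472 TPM. RPS10, a head protein at the mRNA entry, followed at a mean of 12814 TPM (9436 to 17528), and RPS9, a body protein, at 9918 TPM (6952 to 18622). These 3 and the next, RPS29 at 9855 TPM, overlapped in their ranges, so that their order is not fixed by these data. At the low end stood RPS15A at 314 TPM (245 to 520), RPS23, a protein of the decoding centre, at 488 TPM (317 to 797), and RPS28, a head protein, at 602 TPM (469 to 714). The ranges of these 3 also overlapped in part. Even RPS15A stood above 95.4% of the 10605 genes tested. The SD between the 3 libraries of a group was at the median gene 11.2% of the mean in siEIF3G polysomal, 14% in siCtrl polysomal, 29.2% in siEIF3G input and 14.5% in siCtrl input RNA, and its highest value was 56.1%, for RPS24 in siEIF3G input RNA.

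A limit applies to levels within this family. The gene name table lists 474 pseudogene symbols derived from the 28 genes, from 74 for RPSA, 53 for RPS3A and 36 for RPS26 to 1 for RPS9, and reads from such near copies can be shared in ways that estimated TPM do not show. Of these symbols only RPSAP58 was in the deposited table, at 2.37 to 5.96 TPM. The RPS10-NUDT3 readthrough gene, which shares exons with RPS10, was listed at 4.55 to 17.3 TPM.

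The start sites of these genes were searched for the TOP motif. RefSeq starts (GRCh38.p14) were used for 25 of the 28 genes, with 28 starts in all, and none was used for RPS2, RPS15A and RPS20. A start was counted as TOP-like when its first base was C and at least 4 further letters in a row were C or T. Of the 25 genes, 19 had such a start (76%). Counted by starts, 19 of the 28 were TOP-like, against 4.54% of 22199 starts of coding genes. The 4 letters CTTT were found in 19 of the 28 start windows of 30 bases (15 before the start and 15 from it on), against 11.56% of coding starts. Their reverse complement AAAG was found in 1, against 7.98% of coding starts. CTTT is itself made of pyrimidines and mostly lies inside the TOP-like run, so these counts are not separate. The windows below are those of 8 genes named in the comparisons, written 5′ to 3′ on the strand of the gene, with the start and its unbroken pyrimidine run in capitals. RPS29 is shown because its annotated start has no such run, and RPS4X, with no capitals, because its first base is no pyrimidine.
RPS29: ccccgagcgcgcagcTggcagcggtggttg
RPS12: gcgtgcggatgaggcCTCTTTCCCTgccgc
RPS25: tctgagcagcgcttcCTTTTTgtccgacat
RPS3: gcccgcgagccacttCCTTTCCTTTCagcg
RPS24: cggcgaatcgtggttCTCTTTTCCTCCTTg
RPS27: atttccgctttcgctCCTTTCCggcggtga
RPS6: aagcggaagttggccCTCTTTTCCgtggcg
RPS4X: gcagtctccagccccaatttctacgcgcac

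These windows lie at chr14:49598696-49598725 on the minus strand for RPS29, chr6:132814554-132814583 on the plus strand for RPS12, chr11:119018329-119018358 on the minus strand for RPS25 and chr11:75399503-75399532 on the plus strand for RPS3. That of RPS24 lies at chr10:78033848-78033877 on the plus strand, that of RPS27 at chr1:153990747-153990776 on the plus strand, that of RPS6 at chr9:19380222-19380251 on the minus strand and that of RPS4X at chrX:72277234-72277263 on the minus strand. Each covers the end of the promoter and the first bases of the 5′ untranslated region. The pyrimidine run was longest in RPS24, at 14 bases. Which start was used in H1299 was not measured.

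Taken over all members, the 28 mRNAs held a smaller part of the transcripts on polysomes than in input. They made up 11.3%, 10.3% and 11.5% of all TPM in siEIF3G polysomal libraries, against 16.3%, 15.7% and 14.2% in siEIF3G input libraries. In control cells they made up 9.23%, 10.7% and 11.6% in siCtrl polysomal libraries, against 15.1%, 12.8% and 12% in siCtrl input libraries. The polysomal and input libraries did not overlap under either siRNA, whereas siEIF3G and siCtrl libraries overlapped in both fractions, at 11.01% ± 0.622 in siEIF3G and 10.5% ± 1.2 in siCtrl polysomal RNA and at 15.4% ± 1.08 in siEIF3G and 13.3% ± 1.59 in siCtrl input RNA (SD, n = 3 each). Under siCtrl the nearest libraries stood at 11.6% (siCtrl polysomal 3) and 12% (siCtrl input 3). RPS29 alone differed by more than that gap, with 6262 TPM in the first and 11506 TPM in the second. The sum of the 28 mRNAs kept a near constant proportion to that of 47 large subunit mRNAs. The ratio of small to large was 0.841 ± 0.0441 in siEIF3G polysomal, 0.828 ± 0.019 in siCtrl polysomal, 0.851 ± 0.0237 in siEIF3G input and 0.851 ± 0.0151 in siCtrl input RNA (SD, n = 3 each). Within the small subunit, the 12 head genes held 54.8% to 58.2% of the members' TPM in the 6 polysomal libraries, against 48.4% to 54.3% in the 6 input libraries. The gap rested on RPS2 of the body, the most abundant member: without it the head share was 58.2% to 63.2% in polysomal and 57.1% to 61.0% in input libraries, which overlap.

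**Figure D2:**
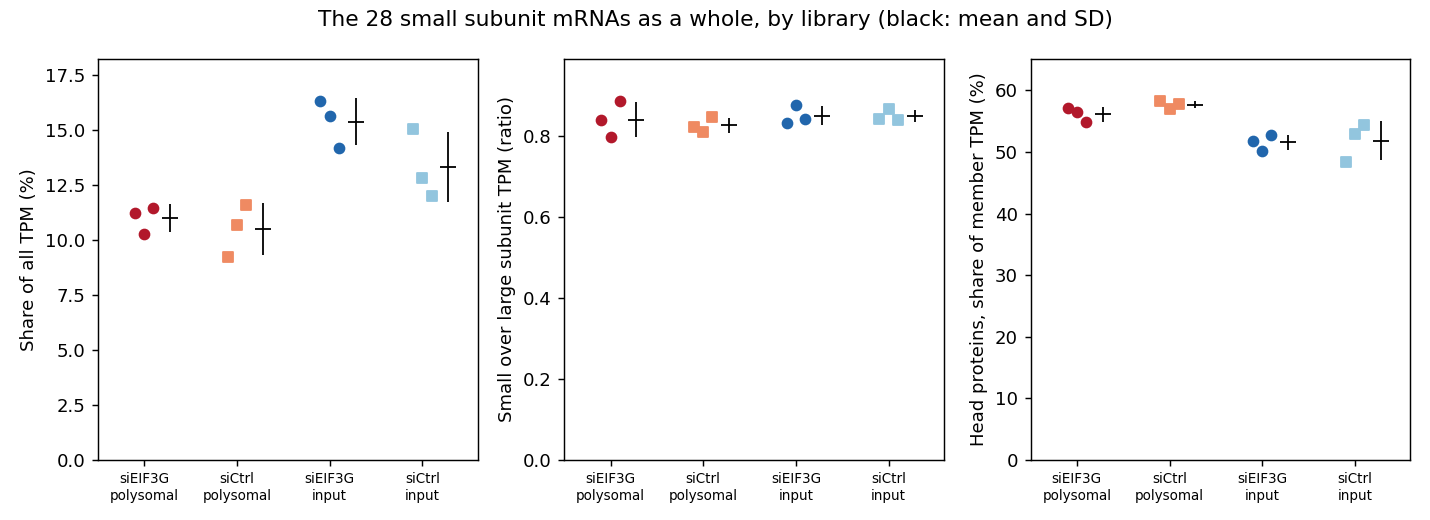
The 28 mRNAs as a share of all TPM (left, %), the ratio of their sum to that of 47 large subunit mRNAs (middle) and the share of the members' TPM held by head proteins (right, %), one point per library, with mean and SD in black. The left panel separates polysomal from input libraries, the middle panel shows all groups near 0.84, and in the right panel the polysomal libraries start at 54.8% where the input libraries end at 54.3%.

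Because TPM are shares, the fractions were compared first within the set. Each library was centred on the median log2(TPM + 1) of the 28 genes, so that a value says how a member moved relative to its fellow members and a linear rescaling of a library alters it only through the pseudocount. On this scale 6 members, RPS29, RPS12 and RPS25 of the head and RPS2, RPS24 and RPS27 of the body and platform, were lower in all 6 polysomal than in all 6 input libraries. RPS3, a head protein at the mRNA entry channel, was higher in all 6. The other 21 members overlapped. Among all genes, 2.82% were lower and 4.38% higher in the same sense. In TPM as deposited, 8 members were lower in all 6 polysomal libraries (RPS13, RPS23 and RPS26 were, and RPS24 was not) and RPS3 alone was higher, against 4.4% and 5.27% of all genes.

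**Figure D3:**
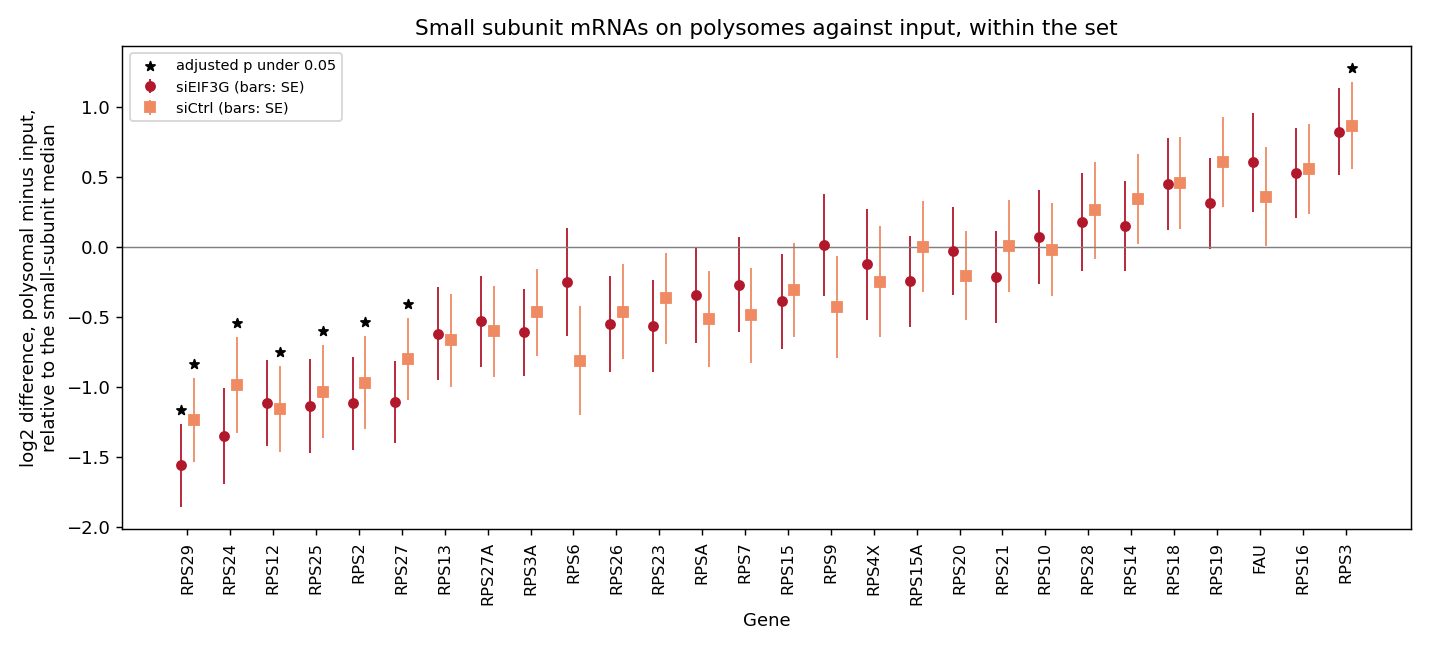
Polysomal minus input log2 difference of each gene relative to the small-subunit median (points, with SE from the model), for siEIF3G (circles) and siCtrl (squares); stars mark a limma adjusted p under 0.05. RPS29 lies lowest, at -1.56 for siEIF3G and -1.24 for siCtrl, and RPS3 highest, at 0.83 and 0.87.

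Among head proteins, RPS29, a small zinc-binding protein next to the decoding region, departed most. It had 4613, 4677 and 4602 TPM in siEIF3G polysomal libraries, against 23644, 13184 and 10853 TPM in siEIF3G input libraries. In control cells it had 4432, 6141 and 6262 TPM in siCtrl polysomal libraries, against 15313, 13034 and 11506 TPM in siCtrl input libraries. Every polysomal library was thus below every input library. Relative to the set, RPS29 was lower on polysomes by a log2 difference of -1.56 (SE 0.30, limma adjusted p = 0.00932) under siEIF3G and of -1.24 (SE 0.30, limma adjusted p = 0.0140) under siCtrl. RPS12, a protein of the beak of the head, had 3136, 3088 and 3127 TPM in siEIF3G polysomal libraries, against 6944, 6554 and 8909 TPM in siEIF3G input libraries. It had 2175, 2649 and 2602 TPM in siCtrl polysomal libraries, against 4976, 5565 and 6196 TPM in siCtrl input libraries. The gap between fractions was wide against the spread of its libraries. On the centred scale, it stood at -1.11 (SE 0.31, limma adjusted p = 0.0944) under siEIF3G and at -1.16 (SE 0.31, limma adjusted p = 0.0178) under siCtrl, where it passed the threshold.

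RPS25, a head protein that viral internal ribosome entry sites need, had 1151, 1476 and 1622 TPM in siEIF3G polysomal libraries, against 4533, 2112 and 4052 TPM in siEIF3G input libraries. It had 929, 1531 and 1436 TPM in siCtrl polysomal libraries, against 1845, 2732 and 3571 TPM in siCtrl input libraries. Its fractions did not overlap, and siEIF3G input 2 and siCtrl input 1, both among the libraries that stood apart, were its lowest input values. Against the set median, it was at -1.14 (SE 0.34, limma adjusted p = 0.122) under siEIF3G and at -1.03 (SE 0.34, limma adjusted p = 0.0273) under siCtrl. RPS3, which also takes part in the quality control of stalled ribosomes, ran the other way. It had 4282, 3975 and 3485 TPM in siEIF3G polysomal libraries, against 2163, 2335 and 2792 TPM in siEIF3G input libraries. It had 3270, 3761 and 3528 TPM in siCtrl polysomal libraries, against 1915, 1979 and 1928 TPM in siCtrl input libraries. All polysomal values of RPS3 exceeded all input values, and the siCtrl input libraries were tightly grouped. Within the set, it was at 0.83 (SE 0.31, limma adjusted p = 0.239) under siEIF3G and at 0.87 (SE 0.31, limma adjusted p = 0.0347) under siCtrl. RPS16 and RPS19, further head proteins, the second of them mutated in Diamond-Blackfan anaemia, followed at 0.53 and 0.31 under siEIF3G and at 0.56 and 0.61 under siCtrl, and neither passed the threshold. The remaining head proteins lay between -0.60 and 0.46 under both siRNAs.

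Among body and platform proteins, RPS2 had 9464, 8396 and 6764 TPM in siEIF3G polysomal libraries, against 19286, 25472 and 14807 TPM in siEIF3G input libraries. It had 7161, 8958 and 9855 TPM in siCtrl polysomal libraries, against 22908, 17088 and 12487 TPM in siCtrl input libraries. The most abundant member in input was therefore below RPS10 in mean level on polysomes. Relative to the set RPS2 was at -1.12 (SE 0.33, limma adjusted p = 0.122) under siEIF3G and at -0.97 (SE 0.33, limma adjusted p = 0.0304) under siCtrl. RPS24, a body protein mutated in Diamond-Blackfan anaemia, had 760, 1270 and 1175 TPM in siEIF3G polysomal libraries, against 5251, 1674 and 2830 TPM in siEIF3G input libraries. It had 849, 1769 and 1697 TPM in siCtrl polysomal libraries, against 3236, 2216 and 2850 TPM in siCtrl input libraries. Within each siRNA its fractions did not overlap, but siEIF3G input 2 lay below the 2 higher siCtrl polysomal libraries. Against the set median, it was at -1.35 (SE 0.34, limma adjusted p = 0.0690) under siEIF3G and at -0.99 (SE 0.34, limma adjusted p = 0.0321) under siCtrl.

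RPS27, a zinc-binding platform protein, had 3938, 3926 and 3301 TPM in siEIF3G polysomal libraries, against 12663, 6428 and 8281 TPM in siEIF3G input libraries. It had 2847, 4101 and 3839 TPM in siCtrl polysomal libraries, against 7876, 5434 and 5660 TPM in siCtrl input libraries. All polysomal values were lower than all input values. Within the set, it was at -1.11 (SE 0.29, limma adjusted p = 0.0802) under siEIF3G and at -0.80 (SE 0.29, limma adjusted p = 0.0363) under siCtrl. FAU, which encodes the RPS30 protein as a fusion with a ubiquitin-like protein, was the body gene with the highest value, at 0.61 under siEIF3G and 0.36 under siCtrl, and did not pass.

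**Figure D4:**
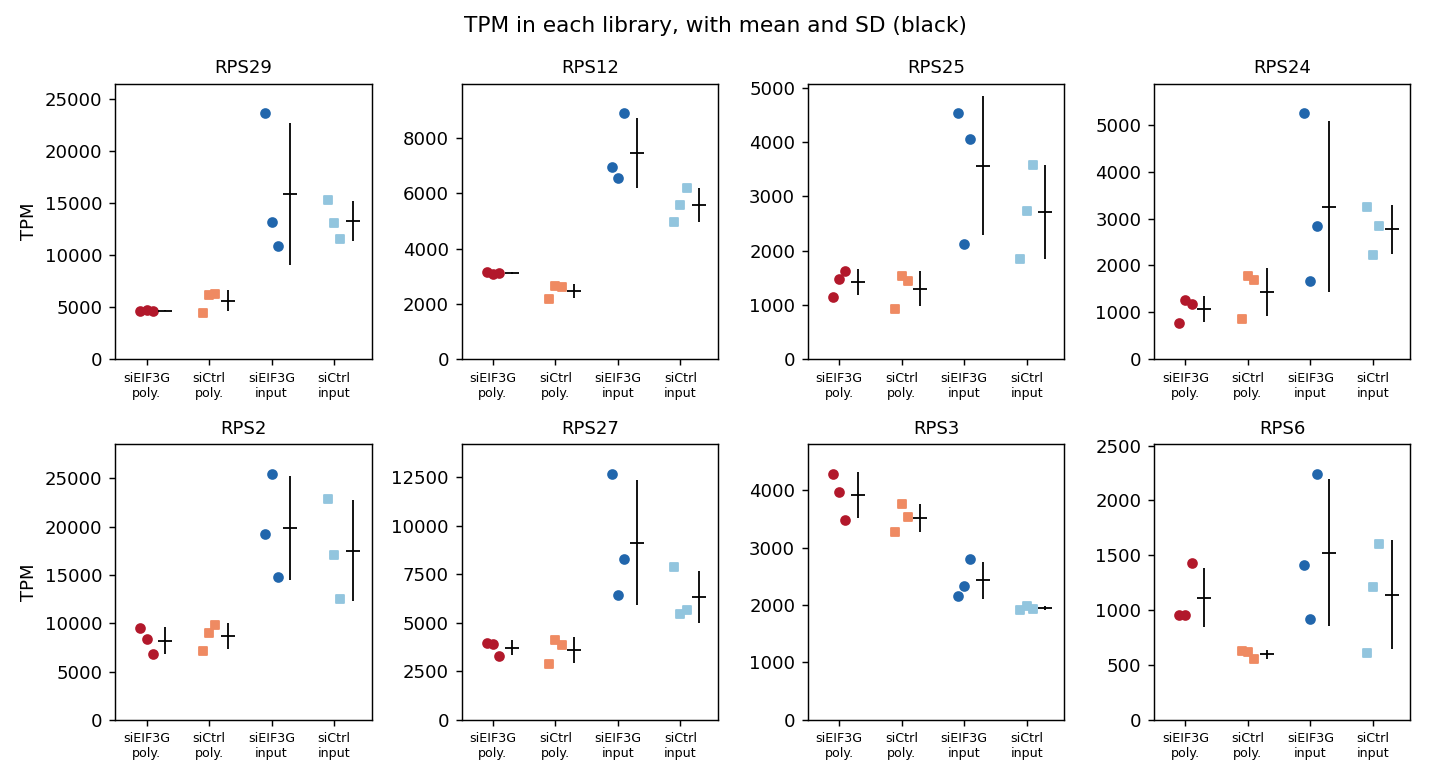
TPM (linear axis from 0) of 8 genes in each library, by group, with mean and SD in black. In RPS29, RPS12, RPS25, RPS2 and RPS27 the 6 polysomal libraries lie below the 6 input libraries, in RPS24 they do so within each siRNA, in RPS3 they lie above, and in RPS6 the 3 siEIF3G polysomal libraries lie above the 3 siCtrl polysomal ones.

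By limma with Benjamini-Hochberg adjustment over 10605 genes, the counts relative to the set were 0 members higher and 1 lower on polysomes under siEIF3G, where 0.226% of all genes were called higher and 0.255% lower. Under siCtrl they were 1 higher and 6 lower, where 4.37% of all genes were called higher and 38.3% lower, so the share of members called lower was below the background. The counts leaned on single libraries. Under siCtrl the 7 calls became 0 without siCtrl polysomal 3 or siCtrl input 2, 1 without siCtrl input 3, and 2 without siCtrl polysomal 1 or siCtrl polysomal 2. Under siEIF3G the call of RPS29 was lost without siEIF3G polysomal 1, siEIF3G polysomal 2 or siEIF3G input 1 (limma adjusted p up to 0.108). No member was called there without siEIF3G polysomal 1 or siEIF3G polysomal 2, and 4 were called without siEIF3G input 2, 6 without siCtrl input 1 and 2 without siCtrl input 3. Some log2 differences moved less: RPS29 lay between -1.75 and -1.44 under siEIF3G and between -1.41 and -1.15 under siCtrl whichever library was left out, and RPS3 between 0.80 and 0.97 under siCtrl. Others ranged more widely. RPS3 lay between 0.54 and 0.98 and RPS16 between 0.27 and 0.86 under siEIF3G, and RPS2 between -1.26 and -0.78 under siCtrl. With the 3 libraries that stood apart left out, 4 members were called higher and 10 lower under siEIF3G (16.1% and 46.4% of all genes), and 3 higher and 10 lower under siCtrl (8.24% and 60.2% of all genes). These 3 were picked for likeness to the opposite fraction in the same data. That choice favours more calls between fractions, so the larger counts are no separate support. Without these 3 libraries RPS29, RPS12, RPS25, RPS2, RPS24, RPS27, RPS7 and RPS27A were called lower, and RPS3, RPS16 and RPS19 higher, under both siRNAs.

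On the deposited scale, without centring, 0 members were called higher and 4 lower under siEIF3G, against 1.81% and 1.33% of all genes. Those were RPS29 at -1.70 (limma adjusted p = 0.00595), RPS2 at -1.25 (limma adjusted p = 0.0253), RPS12 at -1.25 (limma adjusted p = 0.00452) and RPS27 at -1.24 (limma adjusted p = 0.0244). Under siCtrl 1 member was called higher and 6 lower, against 7.98% and 28.9% of all genes, but with size factors 5 were called higher and 0 lower. The siCtrl calls as deposited were RPS3 at 0.86 (limma adjusted p = 0.0140), and RPS29 at -1.25, RPS12 at -1.17, RPS25 at -1.05, RPS2 at -0.98, RPS27 at -0.81 and RPS13 at -0.68 (limma adjusted p from 0.00473 to 0.0409). The siCtrl values of RPS2, RPS12, RPS13, RPS25 and RPS27 changed sign when libraries were rescaled by size factors, which moved the siCtrl median of all genes to -0.04, so their direction depends on the scaling. The same rescaling turned the split of all genes called under siCtrl from 846 higher and 3066 lower into 2835 and 1723, and quantile normalization into 1657 and 1243. Under siEIF3G the split was 192 higher and 141 lower as deposited, 18 and 29 with size factors and 144 and 235 with quantile normalization. Groups did not overlap for 1 member higher and 10 lower under siEIF3G (9.4% and 12.7% of all genes), and for 5 higher and 11 lower under siCtrl (16.9% and 28.9% of all genes). The members' median was -0.39 under siEIF3G and -0.41 under siCtrl, where the median of all genes was -0.49 and -0.96. With size factors these member medians were 0.21 with 17 positive members and 0.76 with 27, in place of 7 positive members each. As deposited and with the median of all genes subtracted, RPS2 was at -0.02, RPS24 at -0.04 and RPS25 at -0.08 under siCtrl. On the same scale RPS12 was at -0.21, RPS29 at -0.29 and RPS27 at 0.15 under siCtrl. Under siEIF3G these 6 lay between -1.20 and -0.75. Under siEIF3G the members' median fell on the other side of that of all genes without siEIF3G input 1 (-0.41 against -0.32), without siEIF3G input 3 (-0.38 against -0.32) and with quantile normalization (-0.44 against -0.05). It also did so with a pseudocount of 5 (-0.39 against -0.28), with no filter (-0.39 against -0.18) and at a minimum mean of 5 TPM (-0.39 against -0.30). The siEIF3G count of 4 became 2 without siEIF3G polysomal 1, siEIF3G polysomal 2 or siEIF3G input 1, 9 without siEIF3G input 2 and 8 without siCtrl input 1. The siCtrl count of 7 became 1 without siCtrl polysomal 2 or siCtrl input 2, 2 without siCtrl polysomal 1 or siCtrl polysomal 3, 3 without siCtrl input 3, 4 without siEIF3G polysomal 1 and 13 without siEIF3G input 2. RPS12 under both siRNAs and RPS29 under siEIF3G kept an adjusted p under 0.05 whichever library was left out.

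**Figure D5:**
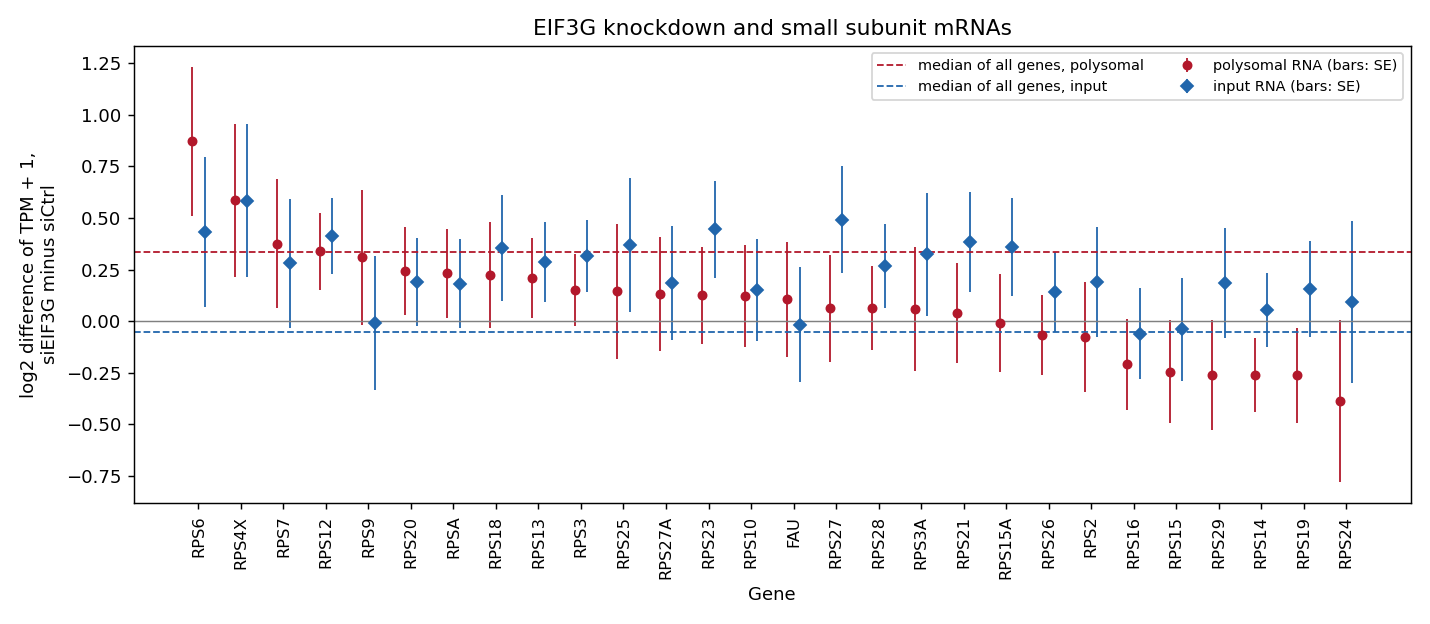
log2 difference of TPM + 1, siEIF3G minus siCtrl, for each gene in polysomal RNA (circles) and input RNA (diamonds), with SE from the model; dashed lines are the medians of all genes, 0.33 in polysomal and -0.05 in input RNA. Input values are mostly above 0 and above their dashed line, and polysomal values run from 0.87 for RPS6 to -0.39 for RPS24 and mostly lie below theirs.

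EIF3G knockdown changed no member past the threshold. In input RNA 24 of 28 members had a positive log2 difference between siEIF3G and siCtrl, with a median of 0.23, where 43% of all genes were positive with a median of -0.05. With single libraries left out, 21 to 27 members were positive, but the gap of 0.28 between the median of the members and that of all genes rested on single libraries. It was 0.04 without siCtrl input 3, 0.14 without siEIF3G input 2, 0.16 without siCtrl input 2 and 0.61 without siCtrl input 1. In TPM, the shares of 28 mRNAs cannot show whether each cell held more of them or less of other mRNAs, and these cannot be told apart. The count of members called was 0 in limma's test on the deposited scale and 0 relative to the set, against 0.0189% and 0.0377% of all genes, and 1 member was at an unadjusted p under 0.05, as were 1.36% of all genes. That was RPS12, at 0.41 (SE 0.19, limma adjusted p = 1), with the input values given above, and its siEIF3G input libraries all exceeded its siCtrl input libraries. RPS3 also did not overlap, which makes 2 members higher and 0 lower, against 1.88% and 1.8% of all genes. The highest differences were those of RPS4X, the X-linked form of a body protein, at 0.59 (SE 0.37), RPS27 at 0.49 (SE 0.26) and RPS23 at 0.45 (SE 0.24). RPS4X had 1253, 812 and 1834 TPM in siEIF3G input libraries, against 438, 968 and 1302 TPM in siCtrl input libraries. Its groups overlapped widely, with siCtrl input 1, which stood apart, at the bottom. Without the 3 libraries that stood apart the order changed, with RPS27 at 0.88 (SE 0.25), RPS3A at 0.68 (SE 0.28) and RPS23 at 0.65 (SE 0.22) highest, RPS24 at 0.62 (0.09 with all libraries) and RPS4X at 0.43, and none of the 28 passed by limma. With all libraries the lowest differences were those of RPS16 at -0.06, RPS15 at -0.04 and FAU at -0.02.

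In polysomal RNA the members' differences between siEIF3G and siCtrl ran from -0.39 to 0.87, with an SD across members of 0.27, against 0.17 in input. The SD was likewise larger in polysomal RNA for all genes, at 0.53 against 0.31, and without the 3 libraries that stood apart it was 0.24 for the members in polysomal and 0.26 in input RNA. RPS6, the body protein that S6 kinases phosphorylate, had 958, 955 and 1428 TPM in siEIF3G polysomal libraries, against 625, 618 and 551 TPM in siCtrl polysomal libraries. The groups were clear of each other, and siEIF3G polysomal 3, which stood apart, was the highest. The log2 difference was 0.87 (SE 0.36), which did not pass (limma adjusted p = 0.650). Leaving out the 3 libraries named above gave 0.68 (SE 0.23, limma adjusted p = 0.253). In input RPS6 had 1414, 918 and 2241 TPM in siEIF3G libraries, against 613, 1209 and 1600 TPM in siCtrl libraries, and there the groups overlapped. RPS4X followed at 0.59 (SE 0.37), with 940, 1036 and 1118 TPM in siEIF3G polysomal libraries, against 851, 646 and 586 TPM in siCtrl polysomal libraries. RPS7, another body protein, was at 0.38 (SE 0.31) and overlapped. RPS12 was at 0.34 (SE 0.19), and it and RPSA, the laminin receptor precursor of the platform, at 0.23, did not overlap either. At the other end stood RPS24 at -0.39 (SE 0.39), RPS19 at -0.26 (SE 0.23) and RPS14, a platform protein, at -0.26 (SE 0.18). RPS14 had 1334, 1176 and 1328 TPM in siEIF3G polysomal libraries, against 1374, 1464 and 1790 TPM in siCtrl polysomal libraries, a small step with no overlap.

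None of the 28 members was called in polysomal RNA by limma with Benjamini-Hochberg adjustment, as deposited or relative to the set, against 0.0189% and 0.00943% of all genes. At an unadjusted p under 0.05 there was 1 member, RPS6, and 6.69% of all genes. Groups did not overlap for 4 members higher and 1 lower, against 21.6% and 7.61% of all genes. In all, 19 of 28 members were positive, with a median of 0.11, where 72.7% of all genes were positive with a median of 0.33. The members' median was thus at -0.22 when that of all genes is taken as 0. This gap was -0.40 with size factors, -0.05 with a pseudocount of 5, 0.01 with no filter and 0.14 with quantile normalization. Leaving out single libraries kept it negative, between -0.37 (without siCtrl polysomal 1) and -0.06 (without siCtrl polysomal 3). The count of positive members also moved. It was 2, at a median of -0.43, after size factors and 21, at a median of 0.15, after quantile normalization. Without siCtrl polysomal 1 it was 14, with a median of -0.01. On the centred scale, RPS6 at 0.73 (SE 0.39) and RPS12 at 0.20 (SE 0.31) were higher in all siEIF3G than in all siCtrl polysomal libraries. RPS19 at -0.40 (SE 0.32), RPS29 at -0.40 (SE 0.30), RPS16 at -0.35 (SE 0.32) and RPS2 at -0.21 (SE 0.33) were lower in all of them. On that scale 8.07% of all genes were higher and 14% lower without overlap, and none of these 6 members passed (limma adjusted p from 0.869 to 0.878).

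The difference of the knockdown effect between polysomal and input RNA, which asks whether loading on polysomes shifted, was positive for 7 of 28 members, with a median of -0.19, where the median of all genes was 0.38. No member and 0% of all genes were called, as deposited and likewise 0% relative to the set. Over all genes, limma gave 19 at an unadjusted p under 0.05 on the deposited scale and 87 relative to the set, and none of them was a member. The highest members were RPS6 at 0.44 (SE 0.51), RPS9 at 0.32 (SE 0.46) and FAU at 0.12 (SE 0.40), and the lowest were RPS24 at -0.48 (SE 0.56), RPS29 at -0.45 (SE 0.38) and RPS27 at -0.43 (SE 0.37). Without the 3 libraries that stood apart RPS24 was at -1.09 (SE 0.52) and RPS27 at -0.74 (SE 0.34), neither past the threshold (limma adjusted p = 0.562 for both), RPS29 was at -0.64 and RPS9 at 0.03. The count of positive members was 3 without siEIF3G polysomal 3, and it was 0 after size factors and 15 after quantile normalization.

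Related mRNAs were set beside the members with the same fit, on the deposited scale and with all 12 libraries only. For all genes, the median knockdown difference was 0.33 in polysomal and -0.05 in input RNA. By limma, 6.69% and 1.36% of them were at an unadjusted p under 0.05. Between fractions, 1.81% of all genes were called higher and 1.33% lower under siEIF3G, and 7.98% and 28.9% under siCtrl. That siCtrl split turned with size factors, so the siCtrl calls below may depend on the scaling. The 47 large subunit mRNAs, the partners of the members in the ribosome, had a median knockdown difference of 0.04 in polysomal and 0.30 in input RNA, against 0.11 and 0.23 for the members. On polysomes against input, 0 were called higher and 8 lower under siEIF3G and 3 higher and 14 lower under siCtrl. RPL23A was the lowest of them, at -2.11 (limma adjusted p = 0.000704) under siEIF3G and -1.55 (limma adjusted p = 0.00322) under siCtrl, with RPL39 at -1.75 (limma adjusted p = 0.0132) and -1.38 (limma adjusted p = 0.0209). The 17 non-ribosomal TOP mRNAs, which are known for the same start motif but encode elongation factors and other proteins, had a median knockdown difference of 0.88 in polysomal and 0.19 in input RNA, and 0 were called by limma in either, with 5 and 1 at an unadjusted p under 0.05. Their largest polysomal values were those of EEF1A1, an elongation factor, at 1.55 (SE 0.58), EIF4B, an initiation factor, at 1.45 (SE 0.65) and VIM, the filament protein vimentin, at 1.44 (SE 0.46). On polysomes against input, 0 of the 17 were called higher under both siRNAs, 1 lower under siEIF3G and 9 lower under siCtrl, with PABPC1, the poly(A) binding protein, at -3.25 (limma adjusted p = 0.0177) and TPT1 at -2.16 (limma adjusted p = 0.00874) under siCtrl. The 22 genes of 40S assembly factors, which build the subunit in the nucleolus and cytoplasm, had a median knockdown difference of 0.74 in polysomal and 0.15 in input RNA, and 0 were called by limma in either, with 6 and 0 at an unadjusted p under 0.05. On polysomes against input, 1 was called higher and 0 lower under siEIF3G and 4 higher and 4 lower under siCtrl. IMP3, a part of the early assembly complex, was the one called under siEIF3G, at 1.15 (limma adjusted p = 0.0283). The differences between these lists and the members were not tested.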

How the data were processed

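The authors deposited TPM per gene for 12 libraries; per the submitters' processing notes RSEM 1.3.1 and the build GRCh38.p13 were used. Aligner, annotation and filters: not given in the sources used here. Per the labels' protocols, mRNA was enriched with oligo(dT). Each library sums to about 1000000, so read depth is unknown and no counting interval can be given. TPM were tested as log2(TPM + 1), which understates changes of low genes. Of 16172 genes, the 10605 that averaged 1 TPM or more were kept. limma 3.58.1 (R 4.3.3) estimated a mean for each of 4 groups (mean-variance trend, 8 residual degrees of freedom), with Benjamini-Hochberg adjustment over all genes per comparison and a threshold of 0.05. The same fit was run after centring each library on the median of the 28 members. The fit was tested on simulated data with independent noise in each gene. Those data held no shared axis of within-group deviations and no library that stood apart, so the test does not cover these features. Named are EIF3G, the 3 highest and 3 lowest members of each comparison and in level, members called relative to the set, and up to 3 of each other list with the largest differences; RPS13, members whose groups did not overlap, and values of a few neighbours in rank were added after their values were seen. The members and lists were chosen with earlier results of these data known. Alternatives were the pseudocount, the filter, size factors, quantile normalization, a total without ribosomal protein genes, a replicate block, a fit of only the groups compared, a covariate for the main axis of within-group deviations, and libraries left out.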

Additional observations from a re-analysis of the deposited data

How the results depend on the processing

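The knockdown calls stayed at 0 under all alternatives run, except that the axis covariate, which was derived from the same libraries, gave 2 members higher in polysomal RNA, where it called 36.4% of all genes. For polysomal against input under siEIF3G, the 4 calls became 2 with no filter, 8 at a minimum mean of 5 TPM, 0 with size factors, 9 with quantile normalization, 8 with the total without ribosomal protein genes, 2 with only the groups compared, 15 with the axis covariate (61.3% of all genes called), 19 without the 3 libraries that stood apart (71.3% of all genes), and 2 to 9 without single libraries. Relative to the set, the 1 call became 3 with a pseudocount of 5, 3 with no filter, 2 at 5 TPM, 2 with quantile normalization, 7 with the axis covariate, 14 without the 3 libraries, and 0 to 6 without single libraries. Under siCtrl the 7 calls became 4 with no filter, 5 with size factors (5 higher and 0 lower, in place of 1 and 6), 13 with quantile normalization, 12 without ribosomal protein genes in the total, 3 with only the groups compared, 16 with the axis covariate (74.3% of all genes), 16 without the 3 libraries (75.3%), and 1 to 13 without single libraries. Relative to the set they became 2 with only the groups compared, 13 without the 3 libraries and 0 to 8 without single libraries. The members' median relative to all genes moved to 0.052 with quantile normalization for the difference of knockdown effects (-0.57 as deposited), and under siCtrl, where it was 0.55, to -0.097 with no filter and -0.46 with quantile normalization. With size factors RPS2 (0.19), RPS12 (0.004), RPS13 (0.50), RPS25 (0.13) and RPS27 (0.37) turned positive under siCtrl. Relative to the set, the input knockdown value of RPS4X (0.33) became -0.006 without the 3 libraries and lay between -0.148 and 0.591 without single libraries (negative without siEIF3G input 3 or siCtrl input 1), and the polysomal value of RPS7 (0.24) became -0.05 without the 3 libraries and lay between -0.05 (without siEIF3G polysomal 3) and 0.432 without single libraries. The causes were not tested. By correlation of within-group deviations the replicate numbers gave no clear pairing. Of 18 same-number pairs 6 correlated above 0.1 (range -0.689 to 0.712), and 4 of 12 libraries matched their own number best. Most of these pairs lie across siRNAs. Between fractions under the same siRNA, pairs 1 to 3 were at -0.454, 0.634 and 0.614 for siEIF3G and at -0.131, 0.356 and -0.526 for siCtrl. Whether the numbers mark shared lysates cannot be told from so few libraries. With the replicate block 5 members were called under siEIF3G and 6 under siCtrl, relative to the set 1 and 7, and 0 in the knockdown comparisons. TPM keep no read counts, and with 3 libraries a group the precision rests on few values.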
